A study of Mus musculus with 8 samples.

Results

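The genes described here carry the response of a cell to misfolded protein in the endoplasmic reticulum (ER) and to shortage of amino acids. They were listed by name, 39 genes in all, and each was read from the row of the array table whose annotated symbol matched, with the row of highest mean kept where a gene had several. Of the 39, 37 had a named row, 33 passed a filter on dim rows and 4 did not, out of 19505 named genes of which 9920 passed. Manf, a chaperone-binding secreted protein, and Pdia4, a disulfide isomerase, had no named row, so no level of either is given.

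The arrays measured RNA of leukaemia stem cells of mice, that is GFP-positive granulocyte-macrophage progenitors (GMPs) that carry the MLL-AF9 fusion oncogene and were sorted from bone marrow of transplanted recipients. There were 3 arrays of Pik3ca-/- cells (KO) and 5 arrays of cells with wild-type Pik3ca (WT), and both groups carried MLL-AF9 and GFP. Pik3ca encodes p110-alpha, a catalytic subunit of phosphoinositide 3-kinase. The sources used here do not give the strain, the age, the way Pik3ca was deleted, or whether each array had its own donor animal. P-values therefore measure only how far these arrays spread, which may be technical.

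The unfolded protein response starts from sensors in the ER membrane. IRE1 (gene Ern1) splices the messenger of Xbp1, ATF6 is cut to release a transcription factor, and PERK (Eif2ak3) phosphorylates the translation factor eIF2alpha. PERK shares that target with the haem-regulated kinase (Eif2ak1) and the amino acid sensor GCN2 (Eif2ak4), and all of them lower general translation while that of Atf4 goes up, so this branch is also named the integrated stress response. ATF6 and XBP1 act on ER chaperone and degradation genes, and ATF4 with CHOP (Ddit3) acts on genes such as Asns, Trib3 and Chac1. Much of this control lies outside transcript level, in splicing, cleavage and translation, which an array of this kind does not read.

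The promoter elements known to be bound by these factors are given first. RefSeq promoters of build GRCm38.p6, from 250 bases before to 50 after the gene start, were found for 34 of the 39 genes. They were searched on both strands for the ER stress element, which is CCAAT, then 9 bases of any kind, then CCACG, and which ATF6 and XBP1 are known to bind together with the factor NF-Y. It was found in 9 of the 34 genes (26.5%), against 37 of all 27025 genes with a promoter (0.137%). Gene list and element were both taken from what is known of this response, so these shares are a description and not a test. The 9 were Calr, Canx, Creld2, Derl3, Dnajc3, Hsp90b1, Hspa5, Pdia6 and Syvn1, with 2 matches in Hsp90b1. They are shown with 10 bases on either side, each read in the direction of the element, with CCAAT and CCACG in capitals.
Calr, chr8:84847065-84847103, + strand: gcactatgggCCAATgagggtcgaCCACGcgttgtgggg
Canx, chr11:50325790-50325828, - strand: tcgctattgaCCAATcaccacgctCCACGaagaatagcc
Creld2, chr15:88819510-88819548, - strand: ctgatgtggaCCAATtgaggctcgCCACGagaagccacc
Derl3, chr10:75893232-75893270, - strand: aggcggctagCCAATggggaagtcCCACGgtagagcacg
Dnajc3, chr14:118937817-118937855, + strand: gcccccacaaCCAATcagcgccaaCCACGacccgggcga
Hsp90b1, chr10:86705628-86705666, - strand: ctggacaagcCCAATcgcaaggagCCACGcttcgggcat
Hsp90b1, chr10:86705523-86705561, + strand: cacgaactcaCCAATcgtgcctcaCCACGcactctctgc
Hspa5, chr2:34772015-34772053, + strand: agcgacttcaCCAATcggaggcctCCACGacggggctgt
Pdia6, chr12:17266481-17266519, + strand: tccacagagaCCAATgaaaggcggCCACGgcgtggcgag
Syvn1, chr19:6046522-6046560, + strand: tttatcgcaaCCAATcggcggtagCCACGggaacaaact

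The parts CCAAT and CCACG by themselves, counted also inside the full element, were each found in 26 of the 34 genes (76.5%), against 41.1% and 35.5% of all genes. Within the 150 bases before the start CCACG was in 14 of the 34 (41.2%), against 22.3% of all genes. A second element, TGATGCAA, is the site of ATF4 with a C/EBP partner. It was in the promoters of 4 of the 34 genes (11.8%), Atf3, Chac1, Herpud1 and Nupr1, against 1.03% of all genes. Allowing any base at the sixth position (TGATGNAA) added Asns and Trib3, for 6 of 34 (17.6%) against 4.51%. These 6 matches follow with the element in capitals. The UPR element TGACGTGG was in 0 of the 34 promoters and in 0.714% of all genes. These are matches of letters, not measured binding.
Asns, chr6:7693215-7693242, - strand: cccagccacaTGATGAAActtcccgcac
Atf3, chr1:191183426-191183453, + strand: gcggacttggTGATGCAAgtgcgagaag
Chac1, chr2:119351039-119351066, - strand: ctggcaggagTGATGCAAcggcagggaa
Herpud1, chr8:94386307-94386334, - strand: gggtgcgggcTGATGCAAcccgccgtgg
Nupr1, chr7:126625563-126625590, + strand: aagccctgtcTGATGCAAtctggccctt
Trib3, chr2:152344029-152344056, + strand: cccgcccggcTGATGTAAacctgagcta

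**Figure D1:**
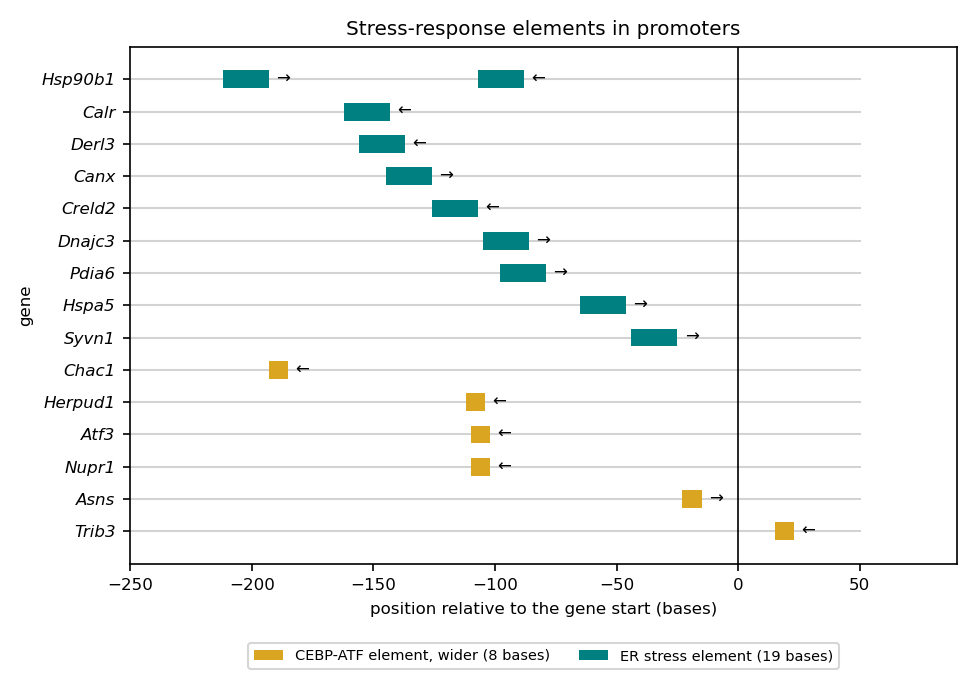
Position of the ER stress element (teal) and of the wider CEBP-ATF element TGATGNAA (yellow) in the promoters that hold them, in bases from the gene start, with arrows for the direction in which the element reads relative to the gene. The 10 ER stress elements lie within 250 bases before the start, the nearest in Syvn1, and the element of Trib3 lies after it.

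No member differed between KO and WT in the test over all genes. With limma, 0 of the 33 members and 0% of all 9920 genes had an adjusted p under 0.05, with all 8 arrays and again when WT array 3 was left out, and the smallest adjusted p of a member was 0.998 and 0.989. At an unadjusted p under 0.05 stood 3 members, Creld2, Asns and Sel1l, against 282 of all genes, or 2.84%. Without WT array 3 it was 2 members, Creld2 and Sel1l, against 464 of all genes, or 4.68%. All KO arrays lay above all WT arrays for 1 member, Creld2, where 1.58% of all genes did so, and below them for 2, Sel1l and Syvn1, where 1.51% did. The same 3 genes were without overlap when WT array 3 was left out, where the shares over all genes were 2.62% above and 2.93% below.

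Taken as a list, 24 of the 33 members were higher in KO and 9 lower, with a median log2 difference of 0.14. Over all genes 56% were higher, and the median was 0.04. With that array (WT array 3) left out, 20 members were higher and 13 lower, with a median of 0.05, against 50.1% of all genes higher and a median of 0.0. Earlier results had shown WT array 3 to stand apart, with a mean correlation of 0.921 with the other arrays across genes where the others had 0.968 to 0.972. It was the lowest of the 8 arrays in 20 members (60.6%), against 36.5% of all genes, and lay a median of 0.63 log2 units below the other WT arrays over the members and 0.15 below them over all genes. Results are therefore given with and without it.

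The sorted population was set against lists of markers. All 9 GMP markers, among them the granule protease genes Mpo, Elane and Prtn3, were above the median row on every array. All 8 markers of maturing neutrophils were so too, so this does not single out GMPs. The neutrophil markers had array means of 14.73 to 15.79 in KO and 15.17 to 15.62 in WT. For the GMP markers these were 14.15 to 14.43 and 14.27 to 14.72. The GMP marker Cd34 was 5.63, 7.81 and 7.42 in KO and 9.49, 7.24, 10.94, 9.08 and 8.01 in WT. The GMP marker Fcgr3 went the other way, at 15.02, 14.98 and 14.83 in KO and 14.56, 14.64, 14.68, 14.91 and 14.58 in WT. Each of the 9 GMP markers overlapped between the groups, and 1 had a limma unadjusted p under 0.05. Plasma cells have a secretory load that goes with a strong unfolded protein response. Of 8 named markers of plasma and B cells, 6 were above the median row on no array, while Cd79b was above it on all 8 and Sdc1 on 7. The summed log2 level of the mast cell, basophil and eosinophil markers was 53.5 to 53.8 in KO and 54.9 to 62.6 in WT. Of those 8 markers Fcer1a and Epx were above the median row on no array, and Prg2 and Prg3 were highest in WT arrays 3 and 4. The monocyte markers, all 7 of them above the median row on at least 3 arrays, summed to 61.2 to 64.9 in KO and 64.6 to 72.7 in WT. The megakaryocyte and platelet markers summed to 39.2 to 41.1 in KO and 38.1 to 65.0 in WT, where Pf4 was 12.44 on WT array 1 and Ppbp 12.78. The part of these markers in any difference given here was not tested. In such bulk samples, fewer cells of a type and less RNA per cell cannot be told apart. Pik3ca itself was 8.73, 9.31 and 9.40 in KO and 9.48, 9.57, 8.41, 9.51 and 9.58 in WT. With all arrays the log2 difference was -0.16 (exact permutation test, two-sided, p = 0.661). Without WT array 3 it was -0.39, and all KO arrays lay below all WT arrays, as for 2.93% of all genes. Which part of the gene was deleted is not stated, so this row does not check the genotype.

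**Figure D2:**
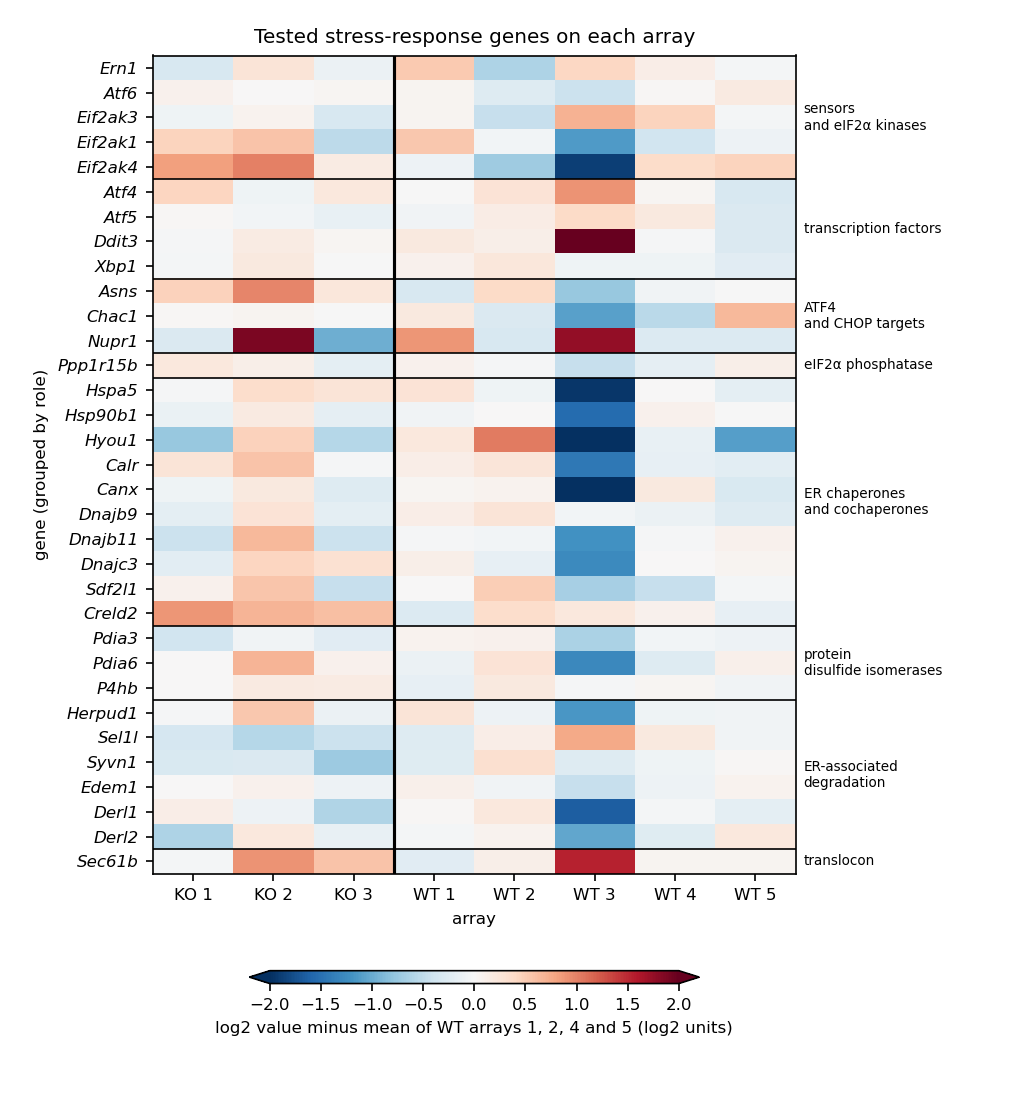
Log2 value of each of the 33 tested genes on each array (columns) minus the mean of WT arrays 1, 2, 4 and 5, with genes in rows by role and colours limited to 2 log2 units on either side. WT array 3 is dark blue over most ER chaperones and dark red for Ddit3, Nupr1 and Sec61b, and Creld2 is the chaperone row that is red on all 3 KO arrays.

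The transcripts of the ER membrane sensors overlapped between the groups. Atf6 was 14.66, 14.58 and 14.62 in KO and 14.63, 14.31, 14.14, 14.60 and 14.76 in WT arrays 1 to 5. The KO values lay inside the WT range, and the log2 difference was 0.13 with a 95% interval of -0.34 to 0.60. Ern1 was 9.16, 9.74 and 9.37 in KO and 10, 8.87, 9.89, 9.61 and 9.44 in WT, again with the KO arrays inside the WT range and a difference of -0.14 (-0.80 to 0.52). Eif2ak3, the PERK gene, was 8.39, 8.56 and 8.16 in KO and 8.54, 8.02, 9.18, 8.92 and 8.45 in WT, a difference of -0.25 (-0.89 to 0.39), with WT array 3 the highest of all. Without that array the 3 differences were 0.05, -0.05 and -0.11, and their exact two-sided permutation p were 0.829, 0.914 and 0.686.

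Of the kinases that share the target of PERK, Eif2ak4 lay furthest apart. Eif2ak4, which encodes GCN2, the kinase that binds uncharged transfer RNA, was 10.27, 10.45 and 9.61 in KO and 9.35, 8.74, 7.56, 9.81 and 9.90 in WT. KO arrays 1 and 2 were above every WT array, while KO array 3 lay below WT arrays 4 and 5. The difference was 1.03 (SE 0.52, interval -0.14 to 2.21), the largest of the 33 members with all arrays, with an exact permutation p of 0.125. The lowest value was that of WT array 3, and without it the difference was 0.66 (SE 0.33, interval -0.10 to 1.41) with an exact permutation p of 0.171, and that of Creld2, 0.72, was larger. Eif2ak1, encoding the haem-regulated kinase, lay between 10.96 and 12.04 in KO and between 10.35 and 12.02 in WT, with a difference of 0.39, and of 0.17 without WT array 3.

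The 4 tested transcription factors of the response differed by between -0.42 and 0.07, and by between -0.06 and 0.19 without WT array 3. Atf4 was 15.47, 14.95 and 15.25 in KO and 15.03, 15.31, 15.94, 15.08 and 14.72 in WT, and the group means were both 15.22. Its difference of 0.01 (-0.65 to 0.67) was 0.19 (-0.28 to 0.66) without WT array 3, which held the highest value, and to -0.03 with quantile normalization. Xbp1 was 14.81, 15.03 and 14.84 in KO and 14.93, 15.07, 14.75, 14.76 and 14.61 in WT, a difference of 0.07 (-0.37 to 0.50) with the groups overlapping. These rows read total Xbp1 transcript and not its splicing. Atf5, a factor related to ATF4, differed by -0.13 (-0.61 to 0.34). Atf3, also induced in stress, was below the filter, at 5.10 to 5.33 in KO and 4.96 to 5.39 in WT, and was above the median row on 1 array.

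Ddit3, which encodes CHOP, a factor of prolonged stress, was set apart by WT array 3. It was 10.38, 10.56 and 10.44 in KO and 10.59, 10.52, 12.79, 10.37 and 10.11 in WT, so that 7 arrays lay within 10.11 to 10.59. The difference was -0.42 (-1.68 to 0.84) with all arrays and 0.06 (-0.34 to 0.46) without WT array 3. A second row for Ddit3 gave 10.86, 10.76 and 10.22 in KO and 10.72, 10.62, 12.39, 10.26 and 9.65 in WT, with WT array 3 again the highest. The kept row lay 2.39 log2 units above the mean of the other WT arrays there.

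Of the targets of ATF4 and CHOP, Asns stood out. It encodes asparagine synthetase, the enzyme that makes asparagine from aspartate, and it was 11.41, 11.92 and 11.17 in KO and 10.63, 11.33, 10.19, 10.88 and 10.94 in WT. KO arrays 1 and 2 were above all WT arrays, and KO array 3 was above all but WT array 2. The difference was 0.70 (SE 0.29, 1.62-fold, limma unadjusted p = 0.0416, adjusted p = 0.998), with an exact permutation p of 0.0714. Without WT array 3 it was 0.55 (SE 0.24, unadjusted p = 0.0535, adjusted p = 0.989), with an exact permutation p of 0.0857. Without KO array 2, the highest, the difference was 0.49. Its promoter, shown whole because Asns is the target gene that differed most, holds the wider element in capitals shortly before the gene start.
Asns, chr6:7693160-7693459, - strand: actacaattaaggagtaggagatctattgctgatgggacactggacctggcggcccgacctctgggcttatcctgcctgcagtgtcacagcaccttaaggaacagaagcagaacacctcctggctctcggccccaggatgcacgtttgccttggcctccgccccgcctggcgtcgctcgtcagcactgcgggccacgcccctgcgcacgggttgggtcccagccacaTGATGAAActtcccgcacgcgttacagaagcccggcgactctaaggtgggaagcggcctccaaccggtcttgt

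The other targets had smaller differences and overlapping groups. Chac1, which encodes an enzyme that breaks down glutathione, was 6.08 to 6.14 in KO and 4.99 to 6.73 in WT, a difference of 0.24, and of 0.02 without WT array 3. Nupr1, a small stress-induced nuclear protein, was 7.95 in KO array 2 and 7.84 in WT array 3 but 5.10 and 5.79 in the other KO arrays, and its difference of -0.15 had the interval -1.74 to 1.45. Trib3, a pseudokinase that restrains ATF4 and AKT, was above the median row on 0 arrays, at 4.53 to 4.81 in KO and 4.27 to 4.75 in WT. Subunits of the phosphatase that resets eIF2alpha followed. Ppp1r15b, the constitutive subunit, differed by 0.14 (-0.35 to 0.62), and Ppp1r15a, the inducible subunit GADD34, was above the median row on 0 arrays, at 2.80 to 2.92 in KO and 2.90 to 3.51 in WT.

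Among the ER chaperones the values depended on WT array 3. Of 10 tested, 9 were higher in KO with all arrays, with a median of 0.37. When WT array 3 was left out, 5 were higher and 5 lower, with a median of 0.01. On WT array 3 this group lay a median of 1.35 log2 units below the other WT arrays, and it was the lowest of the 8 arrays for 8 of the 10 genes. Hspa5 encodes BiP, the central chaperone that also holds the sensors inactive, and was 12.97, 13.35 and 13.25 in KO and 13.27, 12.91, 11.05, 13.01 and 12.80 in WT. The KO arrays and the other 4 WT arrays overlapped, and the difference of 0.58 (-0.48 to 1.64) was 0.19 (-0.23 to 0.62) without WT array 3. Calr, the lectin chaperone calreticulin, was 13.88, 14.19 and 13.59 in KO and 13.74, 13.86, 12.18, 13.45 and 13.41 in WT, with a difference of 0.56, and of 0.27 without that array.

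Dnajc3, a cochaperone of BiP, was 11.16, 11.80 and 11.68 in KO and 11.48, 11.20, 10.10, 11.37 and 11.43 in WT. KO arrays 2 and 3 were above all WT arrays, and KO array 1 lay below 4 of the 5, with a difference of 0.43, and of 0.18 without WT array 3. Hsp90b1, the ER form of HSP90, differed by 0.26 with all arrays and by -0.05 without WT array 3, and the membrane lectin chaperone Canx by 0.49 and -0.05. Hyou1, a large chaperone that exchanges the nucleotide of BiP, was 8.01 on WT array 3 and 9.94 to 12.08 on the other WT arrays, and its difference went from 0.31 to -0.29. The cochaperones Dnajb11 and Dnajb9 differed by 0.17 and -0.03, and by -0.07 and -0.04 without WT array 3, and Sdf2l1, a partner of BiP complexes, by 0.19 and 0.06.

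WT array 3 was not the lowest array for 2 of the chaperone-group genes, Dnajb9 and Creld2. Creld2 encodes an ER protein with EGF-like domains and disulfide isomerase activity, induced in ER stress. It was 12.84, 12.64 and 12.56 in KO and 11.69, 12.31, 12.17, 12.04 and 11.80 in WT. Every KO array was above every WT array. Group means were 12.68 ± 0.14 for KO (SD, n = 3) against 12 ± 0.26 for WT (SD, n = 5). The difference was 0.68 (SE 0.21, 95% interval 0.20 to 1.16), or 1.6-fold (1.15 to 2.24), with a limma unadjusted p of 0.0109, an adjusted p of 0.998, and an exact permutation p of 0.0179, the smallest that 56 splits allow. Without WT array 3 it was 0.72 (SE 0.20, interval 0.27 to 1.18), with an unadjusted p of 0.00631, an adjusted p of 0.989 and an exact permutation p of 0.0571, where 35 splits allow 0.0286. Leaving out any of the 8 arrays gave differences from 0.60 to 0.76, and the groups did not overlap under quantile normalization or median centring either. It failed the correction for all genes in each of these fits.

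The disulfide isomerases, which form and rearrange disulfide bonds in the ER, were mixed. Pdia6 was 9.97, 10.64 and 10.05 in KO and 9.85, 10.23, 8.68, 9.70 and 10.07 in WT, with overlapping groups and a difference of 0.51, and of 0.26 without WT array 3. Pdia3, the partner of calreticulin and calnexin, was the only isomerase lower in KO, by -0.10, and by -0.23 (-0.59 to 0.14) without WT array 3. P4hb, the founding isomerase of the family, lay between 15.53 and 15.89 on all 8 arrays and differed by 0.12 (-0.29 to 0.53).

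**Figure D3:**
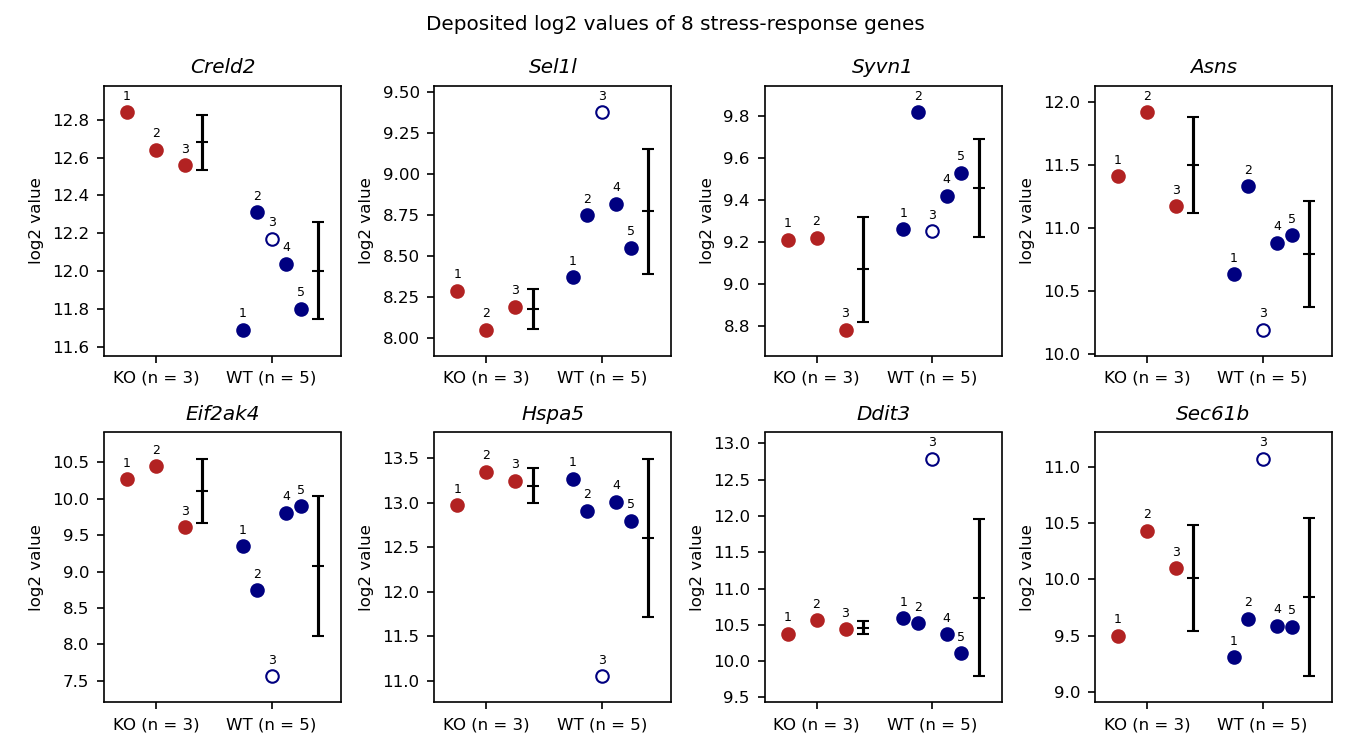
Deposited log2 values of 8 genes in KO (red) and WT (blue) arrays, numbered by array, with WT array 3 as an open circle and black bars for the mean and SD of each group. Axes do not start at 0. The groups do not overlap for Creld2, Sel1l and Syvn1, and WT array 3 is the highest or lowest of the 8 arrays for Sel1l, Asns, Eif2ak4, Hspa5, Ddit3 and Sec61b.

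ER-associated degradation (ERAD) draws misfolded proteins back to the cytosol for the proteasome, and for 2 partners of its core complex all KO arrays lay below all WT arrays, as for 1.51% of all genes (2.93% without WT array 3), and neither passed the test over all genes. Sel1l encodes the adaptor that holds the complex together. It was 8.29, 8.05 and 8.19 in KO and 8.37, 8.75, 9.38, 8.82 and 8.55 in WT, so every KO array was below every WT array, with KO array 1 and WT array 1 the closest. Group means were 8.18 ± 0.12 for KO (SD, n = 3) against 8.77 ± 0.38 for WT (SD, n = 5). The difference was -0.60 (SE 0.25, interval -1.17 to -0.03, limma unadjusted p = 0.0419, adjusted p = 0.998), and the exact permutation p was 0.0357. Without WT array 3, the highest, it was -0.45 (SE 0.18, interval -0.85 to -0.04, unadjusted p = 0.0340, adjusted p = 0.989), with an exact permutation p of 0.0571.

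Syvn1 encodes HRD1, the ubiquitin ligase that SEL1L binds. It was 9.21, 9.22 and 8.78 in KO and 9.26, 9.82, 9.25, 9.42 and 9.53 in WT. The KO arrays were again below all WT arrays, with KO array 2 and WT array 3 the closest. The difference was -0.39 (SE 0.22, interval -0.89 to 0.11, limma unadjusted p = 0.110, adjusted p = 0.998), with an exact permutation p of 0.0357, and -0.44 (SE 0.20, interval -0.91 to 0.02, adjusted p = 0.989, exact permutation p of 0.0571) without WT array 3. Without KO array 3, the lowest, it was -0.24. After quantile normalization the groups overlapped for both Sel1l and Syvn1, with differences of -0.64 and -0.44, and after median centring for Syvn1, at -0.38.

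The other ERAD members did not share that pattern. Herpud1, which recruits substrates to HRD1, was 13.20, 13.77 and 13.11 in KO and 13.48, 13.13, 12.06, 13.14 and 13.15 in WT, with a difference of 0.37, and of 0.13 without WT array 3. Edem1, which targets trimmed glycoproteins, differed by 0.09, and Derl1 and Derl2, membrane proteins of the retrotranslocation channel, by 0.14 and 0.02, both at -0.19 without WT array 3. Derl3 was above the median row on 0 arrays, at 4.42 to 4.55 in KO and 4.31 to 4.55 in WT. Of 14 further ERAD genes, 11 were tested and 0 passed in either direction, with a median of 0.08, and of -0.06 without WT array 3. The 3 ranked first by unadjusted p were Selenos, a membrane protein of the complex, with a log2 difference of 0.26, Edem3 with 0.32 and the ligase gene Rnf139 with 0.19.

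The mast cell, basophil and eosinophil markers were without overlap only as a sum, at 53.5 to 53.8 in KO and 54.9 to 62.6 in WT. Taken singly, each of the 8 markers overlapped between the groups, and they did not all go one way. Prg2 and Prg3 were highest on WT arrays 3 and 4. Hdc was highest on KO arrays 1 and 2, at 10.65 and 9.71 against 7.17 to 9.16 in WT, with KO array 3 inside the WT range. Of the monocyte markers, Irf8 and Ms4a6c were without overlap taken singly, both lower in KO. The part of either list of markers in the differences of Creld2, Sel1l and Syvn1 was not tested. Whole promoters are given of the 3 genes without overlap. Those of Creld2 and Syvn1 hold the full ER stress element, in capitals, although Creld2 was higher and Syvn1 lower in KO. That of Sel1l holds no full element but 4 matches of CCAAT and 1 of CCACG on either strand, in capitals.
Creld2, chr15:88819396-88819695, + strand: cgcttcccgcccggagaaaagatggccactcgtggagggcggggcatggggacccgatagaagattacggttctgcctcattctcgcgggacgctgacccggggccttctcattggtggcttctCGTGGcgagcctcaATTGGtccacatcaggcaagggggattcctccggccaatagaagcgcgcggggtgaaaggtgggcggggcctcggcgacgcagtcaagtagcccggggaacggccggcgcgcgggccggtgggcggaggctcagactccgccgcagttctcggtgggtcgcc
Syvn1, chr19:6046326-6046625, + strand: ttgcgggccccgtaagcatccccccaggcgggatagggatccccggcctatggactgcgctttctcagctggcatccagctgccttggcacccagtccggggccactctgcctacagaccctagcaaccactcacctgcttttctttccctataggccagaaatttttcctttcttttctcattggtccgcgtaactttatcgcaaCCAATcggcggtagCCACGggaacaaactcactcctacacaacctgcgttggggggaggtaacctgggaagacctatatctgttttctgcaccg
Sel1l, chr12:91849108-91849407, - strand: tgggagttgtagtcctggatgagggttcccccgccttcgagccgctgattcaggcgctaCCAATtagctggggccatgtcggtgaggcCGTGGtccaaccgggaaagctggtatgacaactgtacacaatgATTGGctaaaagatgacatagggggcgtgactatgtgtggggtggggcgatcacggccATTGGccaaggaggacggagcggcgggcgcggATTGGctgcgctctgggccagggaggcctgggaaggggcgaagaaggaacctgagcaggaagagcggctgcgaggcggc

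Over the 8 tested genes whose promoters hold the ER stress element, 7 were higher in KO and 1 lower, between -0.39 for Syvn1 and 0.68 for Creld2. Leaving out WT array 3, 5 were higher and 3 lower, and the range was -0.44 to 0.72. Their median was 0.50, and 0.18 without WT array 3. Higher in KO were 72.7% of all tested members and 56% of all genes, and 60.6% and 50.1% without WT array 3. The 4 tested genes with the wider CEBP-ATF element had a median of 0.30, and of 0.17 without that array, when all 4 were above 0. They were then at 0.02 for Chac1, 0.13 for Herpud1, 0.21 for Nupr1 and 0.55 for Asns, and the interval of each held 0.

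Sec61b, a subunit of the channel through which new proteins enter the ER, went the other way on WT array 3. It was 9.50, 10.43 and 10.10 in KO and 9.31, 9.65, 11.07, 9.59 and 9.58 in WT. KO arrays 2 and 3 were above 4 WT arrays and below WT array 3. The difference of 0.17 (-0.77 to 1.10) was 0.47 (-0.07 to 1.02) without that array, with an exact permutation p of 0.143. Of 23 other genes of ER import and folding, 0 passed, with a median of 0.06, and of -0.01 without WT array 3. In that list Sec63, the partner of the channel that recruits BiP, had means of 13.37 ± 0.14 for KO (SD, n = 3) against 12.94 ± 0.16 for WT (SD, n = 5). Its KO arrays, 13.26 to 13.52, did not overlap the WT arrays, 12.79 to 13.21. This was so for 1 of the 23 genes, against 3.09% of all genes (5.55% without WT array 3). Sec63 differed by 0.43 with and without WT array 3 (limma unadjusted p = 0.0481 and 0.0375, adjusted p = 0.998 and 0.989). Next by unadjusted p were the isomerase genes Txndc5, with a log2 difference of -1.02, and Pdia5, with 0.48.

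**Figure D4:**
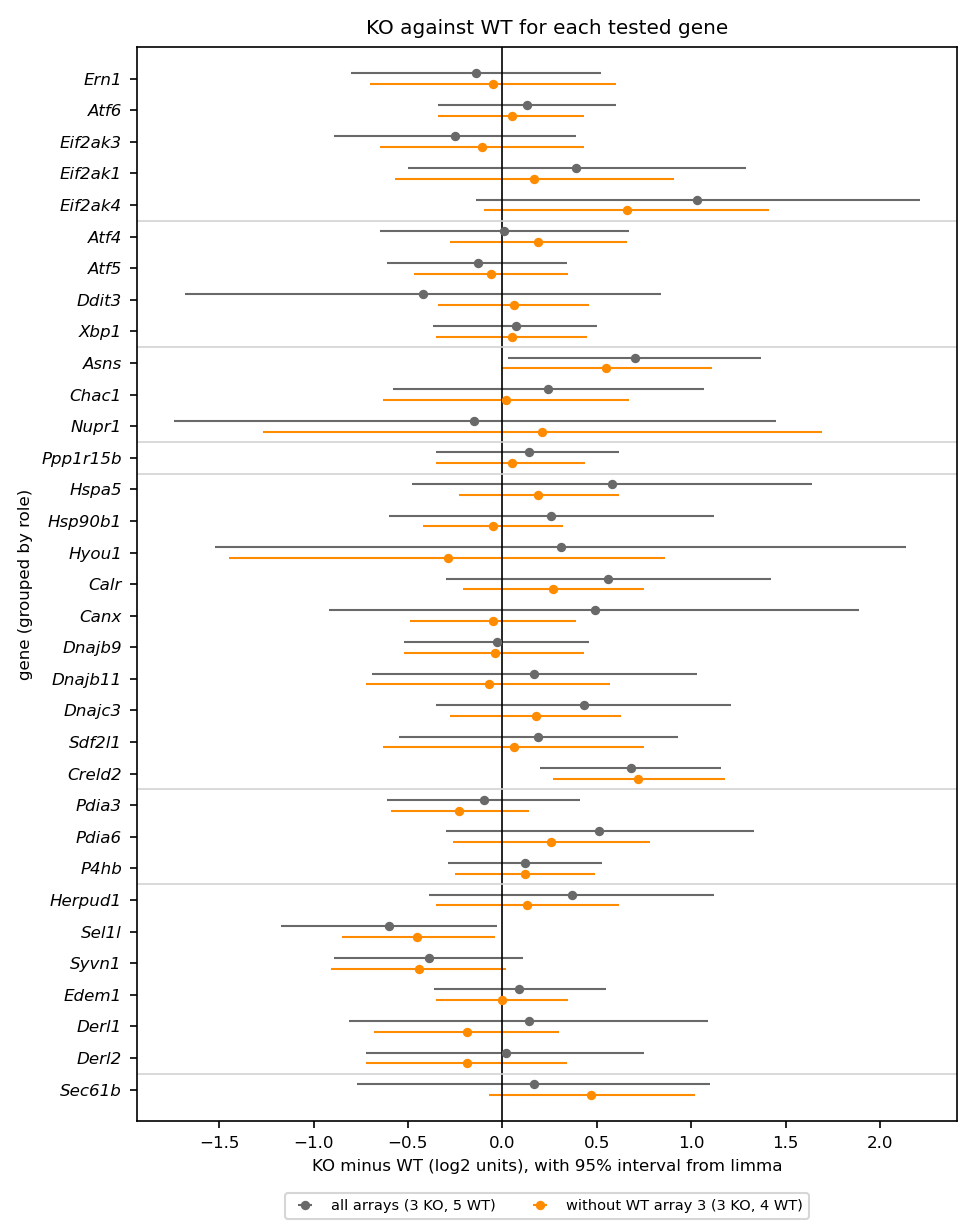
Log2 difference, KO minus WT, of each of the 33 tested genes with its 95% interval from limma, with all 8 arrays (grey) and without WT array 3 (orange), genes in rows by role. Intervals hold for each gene by itself. With all arrays those of Creld2, Asns and Sel1l lie off 0, and without WT array 3 those of Creld2 and Sel1l.

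The intervals show how much these arrays can tell. With all 8 arrays, 14 of the 33 members had an interval inside 1 log2 unit on either side of 0, a 2-fold change, and 0 had one inside 0.5. In the fit lacking WT array 3, 27 had an interval inside 1. For 9 of them, Atf6, Atf5, Ddit3, Xbp1, Ppp1r15b, Hsp90b1, Canx, P4hb and Edem1, the interval then lay inside 0.5. For Ddit3 that holds for the kept row only, as no interval was computed for its second row. The standard errors of the members ran from 0.18 to 0.81 with all arrays and from 0.15 to 0.64 without WT array 3.

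The KO arrays also differed among themselves. KO array 2 was the highest of the 8 arrays in 13 members (39.4%), where it was so in 14.1% of all genes, and KO array 3 in 0 members, against 10.9%. Over the ER chaperones, KO array 2 lay a median of 0.44 above the mean of WT arrays 1, 2, 4 and 5, while KO arrays 1 and 3 lay at -0.11 and -0.19. Set against the mean of the other 3 of those WT arrays, WT array 2 was at 0.21 and WT array 5 at -0.24. In ERAD the KO arrays were at -0.16, -0.01 and -0.29.

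The remaining lists around the response gave 0 passing genes in either direction. The amino acid programme of ATF4 had 23 genes, of which 21 had a named row and 11 were tested. Its median was 0.26 with 8 of 11 higher in KO, and -0.12 with 5 of 11 higher without WT array 3. Shmt2, a mitochondrial serine enzyme, had a log2 difference of -0.41 (KO 12.32 to 13, WT 12.87 to 13.27), Cth, of cysteine synthesis, by 0.83 and the glutamine transporter gene Slc1a5 by -0.25. Other signalling genes of the response had a median of 0.18 over 14 tested, and of 0.09 without WT array 3, with Mbtps1, the protease that cuts ATF6, at 0.44, Map3k5, a stress kinase downstream of IRE1, at 0.74, and Rtcb, the ligase that joins spliced Xbp1, at 0.58. In the fit lacking WT array 3 these 3 were at 0.27, 0.30 and 0.02. Mitochondrial chaperones and proteases had a median of 0.05 over 10 genes, and of -0.08 without that array, when 2 were higher and 8 lower. The 3 ranked first by unadjusted p were Yme1l1, a protease of the inner membrane, with a log2 difference of 0.60, Dele1, which relays mitochondrial stress to eIF2alpha kinases, with -0.32, and the protease gene Lonp1 with 0.18.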

How the data were processed

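RNA of sorted cells was labelled with biotin and hybridised to Affymetrix arrays, per the labels' protocols. What the authors deposited is a table of log2 values with 28846 rows for the 8 arrays, from 1.89 to 18.6 with array medians of 5.26 to 5.51. The log base was read from that range, and the sources used here give no normalization, software or build. Symbols came from the platform annotation, which appears to be of another Affymetrix mouse array than the design text names. Of the 22206 transcript rows of the table, 19572 had exactly 1 symbol by identifier in that annotation and 2634 did not. How many rows of the annotation found a row of the table was not counted.

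A gene was tested if its row was above the median of all rows on at least 3 arrays. KO was compared with WT with two-sided tests in limma 3.58.1 under R 4.3.3 (lmFit, eBayes), fitted over 9920 genes with Benjamini-Hochberg adjustment at 0.05, and for members also by exact two-sided permutation. Intervals are at 95% and not adjusted. The code of the fit was tested on simulated data for the 7 arrays without WT array 3. Members, role groups, companion lists and motifs were chosen with earlier results of these data known. Array values of Ern1, Atf6, Eif2ak3, Atf4, Ddit3, Xbp1, Hspa5, Asns and of the members with the 10 smallest unadjusted p (6 without WT array 3) are given in full, and of each companion list the 3 genes of smallest unadjusted p are named. Other members were described after their values were seen. The number of arrays limits the precision, and no 2 arrays were duplicates, the closest pair having a root mean square difference of 0.574. The alternatives covered filters, normalization, floor, eBayes settings, array weights, a replicate block, the row of a gene, each array left out, and a promoter window of 150 bases. Python 3.11.15 and matplotlib 3.10.9 made the figures.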

Additional observations from a re-analysis of the deposited data

Results flagged for a closer look

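In the 5 WT arrays, each of the 37 members with a row was checked for a highest or lowest array whose distance to the next array exceeded 0.71 of the whole WT range. It was found for 12 members (32.4%), against 12.8% of all 19505 genes with a named row, where chance gives about 1 in 20. Of the 12, 11 were on WT array 3 (29.7% of the members), where 1959 of the 19505 genes had it. Many of the 19505 genes were dim, while most members passed the filter. Among tested genes only, it was found for 33.3% of the 33 members and 16.8% of all 9920 genes. On WT array 3 these shares were 33.3% and 14.5%. On that array ER chaperone genes were lowest, with Hspa5 at 11.05 (next 12.80), Hsp90b1 at 13.89 (15.36), Calr at 12.18 (13.41), Canx at 11.27 (13.67), Dnajb11 at 7.87 (9.02) and Dnajc3 at 10.10 (11.20). Pdia3 at 12.84 (13.37), Herpud1 at 12.06 (13.13) and Derl1 at 11.14 (12.59) were lowest there too. Highest there were Ddit3 at 12.79 (10.59) and Sec61b at 11.07 (9.65). The remaining gene was Trib3, lowest on WT array 5 at 4.27 (4.62), where it was dim on all arrays.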

How the results depend on the processing

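The count of genes passing the test was 0 under all 17 alternatives run, with all arrays and, with quantile normalization or no filter, without WT array 3. The no-filter fit without WT array 3 was chosen after seeing the data. The median over the members ran from 0.05 to 0.26 with 1 array left out, with the lowest value without WT array 3, and was 0.05 with array weights. The count of members above 0 ran from 18 (without KO array 2) to 25. The count of members without overlap was 3 (3.09% of all genes), 2 with median centring (Creld2 and Sel1l; 2.95%), 1 with quantile normalization (Creld2; 3.04%) and from 3 to 6 with 1 array left out (4.78% to 9.32%), where Eif2ak4, Asns and Calr joined without KO array 3. Of the 33 differences, 20 kept their sign whichever array was left out. The others ran, for Atf4 from -0.12 to 0.19, Ddit3 from -0.61 to 0.06, Xbp1 from -0.00087 to 0.13, Nupr1 from -0.98 to 0.44, Hsp90b1 from -0.05 to 0.36, Hyou1 from -0.29 to 0.72, Canx from -0.05 to 0.67, Dnajb9 from -0.19 to 0.05, Dnajb11 from -0.20 to 0.35, Sdf2l1 from -0.06 to 0.45, Derl1 from -0.19 to 0.34, Derl2 from -0.19 to 0.23, Sec61b from -0.04 to 0.47. Under the 9 other alternatives 11 of 294 values changed sign. With array weights these were Nupr1 at 0.12, Hsp90b1 at -0.0038, Hyou1 at -0.25, Dnajb11 at -0.04, Derl1 at -0.12 and Derl2 at -0.18, and with quantile normalization Atf4 at -0.03 and Derl2 at -0.05. With the replicate block these were Atf4 at -0.20, Xbp1 at -0.03 and Sec61b at -0.0039. The cause was not tested. Titles give both groups numbers 1 to 3. Arrays of the same number had deviations from their group means that correlated at 0.02, -0.02 and 0.14 across genes. Pairs of unlike number ran from -0.12 to 0.14. So few correlations cannot tell whether arrays of the same number shared a batch or donor. The main fit used no pairing, and the replicate block called 0 genes.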
